A study of Mus musculus with 6 samples.

Results

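The 9 genes Egr1, Egr2, Egr3, Klf2, Klf4, Klf6, Nr4a1, Ier2 and Arc encode immediate early gene products and were followed through 6 RNA-seq libraries of mouse oligodendrocyte progenitor cells (OPCs). They were taken by their symbols from the deposited count tables, which list 24421 genes. All 9 were found and all 9 passed the filter on low counts, among 15906 genes tested. A group of 3 libraries came from Prrc2bf/f; Olig2-Cre mice (knockout), and 3 came from Prrc2bf/f mice without Cre (control). Both groups carried floxed alleles of Prrc2b, the gene of an RNA-binding protein, on the C57BL/6J background. Cortices were taken at postnatal day 4, and OPCs of both groups were purified by panning against GalC and O4 and grown under proliferation conditions. The series' design text speaks of brain tissue instead. The medium of both groups held PDGF-AA, bFGF and CNTF at 10 ng/ml each, NT3 at 1 ng/ml and forskolin at 2 μM. Olig2-Cre acts in cells that have expressed Olig2, which need not all be OPCs. As control mice lacked Cre, loss of Prrc2b and the Cre allele itself cannot be told apart. The labels do not say whether replicates are separate animals, so the p-values speak of the spread among these 6 libraries, which may be technical.

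Immediate early genes are transcribed within minutes of a signal, from factors already present in the cell, and their messages are short-lived. Growth factors reach them mainly through MAP kinases and the serum response factor SRF, and cyclic AMP through the factor CREB. Forskolin, an activator of adenylyl cyclase, raises cyclic AMP. EGR and KLF proteins are zinc finger transcription factors, Nr4a1 encodes an orphan nuclear receptor, Ier2 a small nuclear protein, and Arc a protein of the neuronal synapse that is derived from a retrotransposon.

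RefSeq windows upstream of the transcription start (GRCm38.p6) were found for 5 of the 9 genes, and 4 are shown because they hold the control elements by which such genes are classed. Each line gives 250 bases that end at the last base before the start, 5′ to 3′ on the strand of the gene. Capitals mark the cyclic AMP response half-site TGACG on either strand, the CArG box (the SRF element), the MEF2 element, and the EGR sites GCGGGGGCG and GCGTGGGCG on either strand.
Nr4a1 (chr15:101266596-101266845, plus strand): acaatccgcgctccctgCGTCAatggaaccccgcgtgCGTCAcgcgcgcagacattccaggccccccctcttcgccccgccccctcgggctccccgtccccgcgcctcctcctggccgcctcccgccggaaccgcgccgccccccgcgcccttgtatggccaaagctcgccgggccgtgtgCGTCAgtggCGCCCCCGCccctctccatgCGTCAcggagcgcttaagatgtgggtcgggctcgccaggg
Egr2 (chr10:67537619-67537868, plus strand): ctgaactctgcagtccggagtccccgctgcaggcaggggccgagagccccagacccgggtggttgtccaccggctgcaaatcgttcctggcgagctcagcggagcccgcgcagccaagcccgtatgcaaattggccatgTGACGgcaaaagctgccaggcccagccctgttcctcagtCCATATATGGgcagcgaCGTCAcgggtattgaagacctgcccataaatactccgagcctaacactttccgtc
Klf2 (chr8:72318812-72319061, plus strand): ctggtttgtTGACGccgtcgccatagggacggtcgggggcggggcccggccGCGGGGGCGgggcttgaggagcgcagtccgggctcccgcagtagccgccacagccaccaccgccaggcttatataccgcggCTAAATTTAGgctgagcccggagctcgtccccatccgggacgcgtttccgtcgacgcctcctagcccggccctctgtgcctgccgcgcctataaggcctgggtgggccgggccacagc
Klf4 (chr4:55532476-55532725, minus strand): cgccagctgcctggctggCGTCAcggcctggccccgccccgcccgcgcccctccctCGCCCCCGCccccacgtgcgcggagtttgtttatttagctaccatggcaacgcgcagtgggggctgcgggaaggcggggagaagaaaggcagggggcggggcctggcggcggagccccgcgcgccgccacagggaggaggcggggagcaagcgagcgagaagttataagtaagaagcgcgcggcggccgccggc

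The Nr4a1 window held 4 half-sites TGACG, the Egr2 window 2, and the Klf2 and Klf4 windows 1 each. Among all 32851 windows of this length, 17.8% held at least 1. The complete element TGACGTCA, present in 1.55% of all windows, was in none of those of the 5 genes. Egr2 had a CArG box at -72 to -63 from its start, an element found in 1.47% of all windows. Klf2 had a MEF2 element at -118 to -109, found in 2.92% of all windows. Nr4a1, Klf2 and Klf4 each had 1 site GCGGGGGCG, found in 2.57% of all windows, and in all 3 it overlapped a GC box (GGGCGG, 32.7% of all windows). That site ends in GGGCG, so a following G completes a GC box, and the overlap is largely built into the letters. The site GCGTGGGCG (0.536% of all windows) was in none. The Klf6 window held 1 GC box and none of the marked elements. Egr2 has 5 start sites in RefSeq, and the windows of 3, the one shown among them, hold this CArG box and both half-sites. These 3 windows overlap, as their starts lie from 67537869 to 67537930. The window of the start at 67537566 held a different CArG box, CCTTTTTTGG, at -72 to -63. The Egr2 and Nr4a1 windows lay inside the GENCODE spans of their genes, that of Egr2 in no exon, and 29 bases of the Klf2 window fell in a GENCODE exon. These are matches of letters and were not measured as binding.

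Prrc2b itself was lower in every knockout library. It stood at 653, 826 and 771 CPM (gene counts scaled to a common library total) in knockout replicates 1, 2 and 3, against 928, 1079.9 and 931 CPM in control replicates 1, 2 and 3. The labels do not say what a replicate number marks, and the main test did not use the numbers. Libraries of the same number resembled each other across genes, and the numbers were taken as pairs from that alone. Each change is therefore also given from a fit that compares same-numbered libraries with each other (the replicate block). With it, the log2 fold change of Prrc2b was -0.41 (adjusted p = 0.00688 by edgeR, SE 0.06), and the edgeR adjusted p without it was 1.00. Gene counts per library lay between 26015604 and 28114968. All 10 OPC markers were detected in every library, with sums from 2902 to 5837 CPM in knockout and from 2826 to 4983 CPM in control libraries.

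In the main test, which had no block, edgeR called 0 of the 9 genes and 0 genes of all (0%). The fit with the replicate block was an alternative and left 2 residual degrees of freedom, against 4 without the block. None of the 9 genes fell with the block. Klf4, Klf6, Arc and Egr1 rose with it in knockout OPCs, with fitted folds from 1.16 for Egr1 to 1.48 for Arc. That is 4 of 9, against 1.57% of all 15906 genes tested that rose, 2.23% that fell and 3.8% called in either direction (edgeR, adjusted p under 0.05 over all genes). The 9 genes were chosen with earlier results of these data known, so comparisons with all genes are no test of the set. With the block, 250 genes rose and 354 fell, but 271 rose and 231 fell when scaled by library totals, and 289 rose and 247 fell with upper quartile scaling. The median blocked log2 fold change was 0.24 over the 9 genes and 0.00 over all genes tested. Knockout was above control in all 3 same-numbered pairs for 7 of the 9 genes, and below in all 3 pairs for 0. Over all genes tested the shares were 23.9% above and 16% below. In the main test, without the block, 274 genes of all and 0 of the 9 had an unadjusted edgeR p under 0.05. DESeq2 without the block called 0 of the 9 and 20 of all genes (0.126%), and limma-voom called 0 of both (0%). The groups overlapped for all 9 genes, as they did for most genes tested, of which 6.11% did not overlap.

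**Figure D1:**
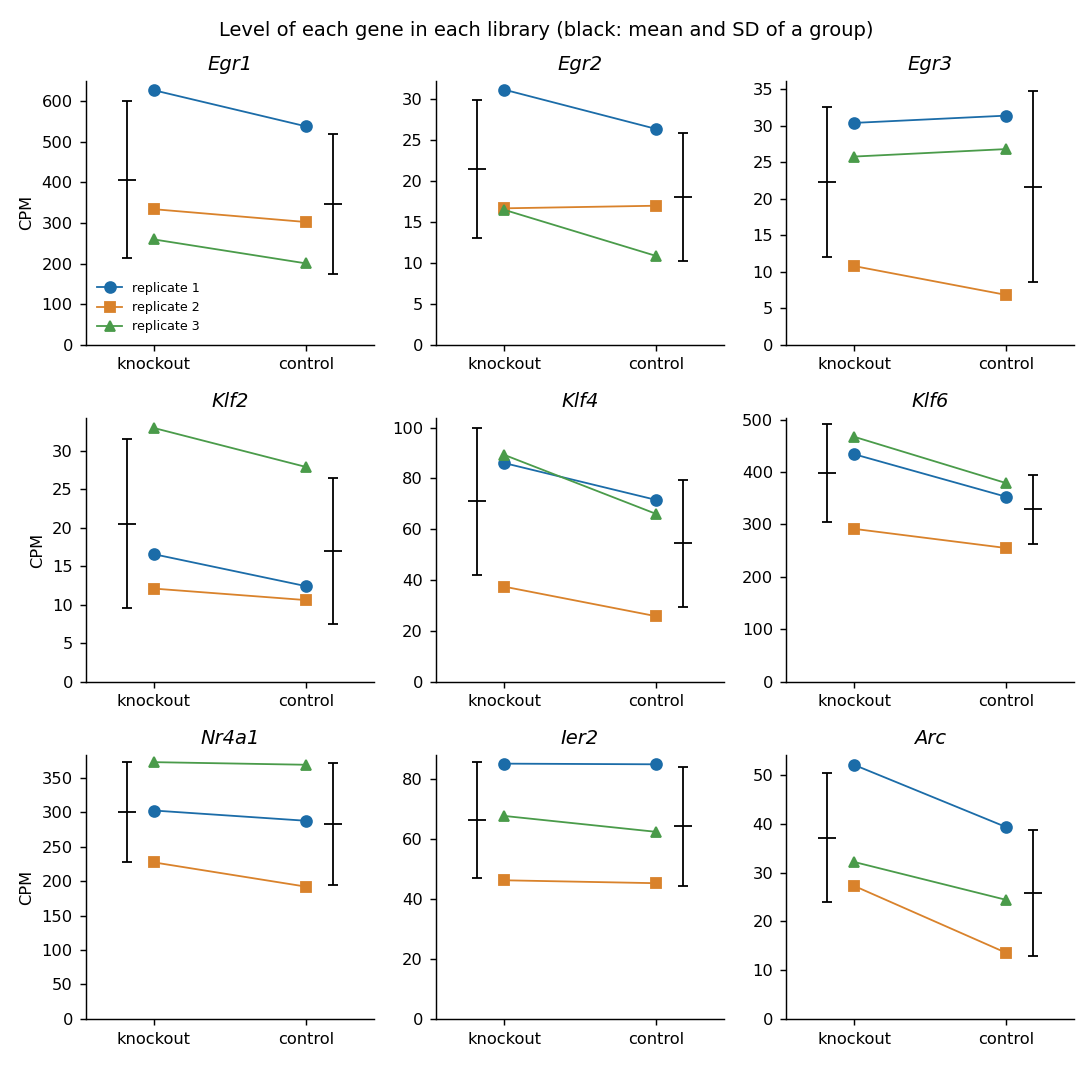
Level of each of the 9 genes in CPM (y axis, from 0) in knockout and control libraries (x axis). Coloured points joined by lines are libraries of the same replicate number, and black bars give the mean and SD of 3 libraries. Groups overlap in every panel, and replicate 2 is lowest in both groups except for Egr1 and Egr2.

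Levels were set against each other per kilobase of exon (GENCODE, mm10). Egr1, Nr4a1 and Klf6 were the most abundant, at 84.1, 83.1 and 82.7 CPM per kb over the 6 libraries, and did not differ beyond their spread. Egr1 averaged 90.7 ± 43.4 CPM per kb in knockout and 77.4 ± 38.6 in control libraries (SD, n = 3 each), at the 97.9th percentile of genes tested. Ier2 followed at 42.9 and Klf4 at 20.6 CPM per kb, and the libraries of Klf6, Ier2 and Klf4 did not overlap in level. Arc and Klf2 came next at 10.3 and 10.2 CPM per kb, and Egr2 and Egr3 were lowest at 5.81 and 4.99 CPM per kb, near the middle of all genes tested. From Klf4 down to Egr3, each gene overlapped its neighbour in this order.

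Among the EGR factors, Egr1 alone passed the blocked test. Egr1, the classic growth factor response gene of the family, lies on chromosome 18 from 34859823 to 34864984 (GRCm38). It stood at 627, 334 and 259 CPM in knockout replicates 1, 2 and 3, against 538, 302 and 200.4 CPM in control replicates 1, 2 and 3. Each knockout library was above the control library of its number, by 16.5%, 10.5% and 29.5%. The libraries numbered 1 were highest in both groups and those numbered 3 lowest, and the span within control was 2.69-fold. In the blocked fit the log2 difference was 0.22 (adjusted p = 0.0428 by edgeR, SE 0.05), and without the block it was 0.20 (adjusted p = 1.00 by edgeR, SE 0.45).

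Egr2, also called Krox20, is known for its role in myelination by Schwann cells of the peripheral nerve, and lies on chromosome 10 from 67535475 to 67542188. It stood at 31.2, 16.7 and 16.5 CPM in knockout libraries, against 26.4, 17.0 and 10.8 CPM in control libraries, in the order of replicates 1, 2 and 3. The knockout library differed from its control by 18.2%, -1.87% and 52.0% in pairs 1, 2 and 3. edgeR with the block gave a log2 fold change of 0.24 (adjusted p = 0.363 by edgeR, SE 0.13), and it lay between 0.085 without the pair numbered 3 and 0.40 without the pair numbered 2. The difference between Egr1 and Egr2 was not tested.

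Egr3, needed for the formation of muscle spindles in mice, lies on chromosome 14 from 70077203 to 70082614. It stood at 30.4, 10.8 and 25.8 CPM in knockout libraries, against 31.4, 6.82 and 26.8 CPM in control libraries, in the order of replicates 1, 2 and 3. The knockout library differed from its control by -3.17%, 58.0% and -3.83% in pairs 1, 2 and 3, and in pair 2 counts were 302 in knockout and 184 in control. Its span within control, 4.60-fold, was the widest of the 9 genes. The estimate with the block was a log2 fold change of 0.13 (adjusted p = 0.689 by edgeR, SE 0.14), and it was -0.069 without the pair numbered 2 and 0.027 by limma-voom.

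**Figure D2:**
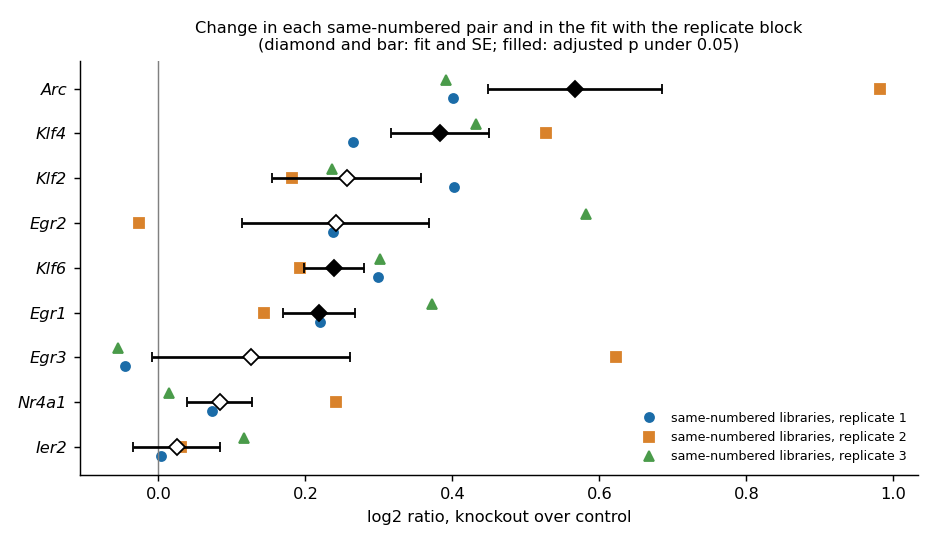
log2 ratio of knockout over control (x axis) for each of the 9 genes (y axis). Coloured points are the 3 same-numbered pairs, on log2(CPM + 0.5), and diamonds with bars are the blocked edgeR fit and its SE, filled where the adjusted p was under 0.05. Points of Klf4, Klf6, Arc, Egr1, Klf2, Nr4a1 and Ier2 lie right of 0 in all 3 pairs, and those of Egr2 and Egr3 lie on both sides.

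Among the KLF factors, Klf4 and Klf6 rose with the block and Klf2 did not pass. Klf4, a factor used in reprogramming to pluripotency, lies on chromosome 4 from 55527143 to 55532466, on the minus strand. It stood at 86.1, 37.4 and 89.3 CPM in knockout replicates 1, 2 and 3, against 71.6, 25.8 and 66.1 CPM in control replicates 1, 2 and 3. Knockout was above control by 20.3%, 45.1% and 35.2% in the pairs, while the libraries numbered 2 were the lowest of both groups. The fitted log2 change within pairs was 0.38 (adjusted p = 0.0179 by edgeR, SE 0.07), and without the block it was 0.36 (adjusted p = 1.00 by edgeR, SE 0.46).

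Klf6, a widely expressed factor required for myelination of the central nervous system in mice, lies on chromosome 13 from 5861482 to 5870394. It stood at 434, 292 and 467 CPM in knockout replicates 1, 2 and 3, against 353, 255 and 379 CPM in control replicates 1, 2 and 3. Knockout exceeded control by 23.0%, 14.3% and 23.3%, the most even change of the 4 genes that rose. Klf6 also had the narrowest span within a group, at 1.60-fold in knockout and 1.49-fold in control libraries. In the blocked fit the log2 difference was 0.24 (adjusted p = 0.0171 by edgeR, SE 0.04), and without the block it was 0.25 (adjusted p = 1.00 by edgeR, SE 0.21).

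Klf2, a factor known from endothelial cells under blood flow, lies on chromosome 8 from 72319033 to 72321656. It stood at 16.6, 12.1 and 32.9 CPM in knockout libraries, against 12.4, 10.6 and 27.9 CPM in control libraries, in the order of replicates 1, 2 and 3. Knockout was above control in each pair, by 33.4%, 14.1% and 18.1%, and the libraries numbered 3 were far above the others in both groups. edgeR with the block gave a log2 fold change of 0.26 (adjusted p = 0.221 by edgeR, SE 0.10), and with GC correction it was 0.40. The blocked estimate was close to that of Klf6 (0.24, SE 0.04), and differences between the KLF genes were not tested.

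Of the remaining genes, Arc rose with the block and Nr4a1 and Ier2 did not pass. Arc lies on chromosome 15 from 74669083 to 74672570, on the minus strand. It stood at 52.1, 27.3 and 32.2 CPM in knockout replicates 1, 2 and 3, against 39.4, 13.6 and 24.4 CPM in control replicates 1, 2 and 3. The pair numbered 2 differed by 101%, with counts of 765 in knockout and 366 in control, and the other pairs by 32.4% and 31.8%. The estimate with the block was a log2 fold change of 0.57 (adjusted p = 0.0323 by edgeR, SE 0.12), the highest estimate of the 9 genes, and without the block it was 0.51 (adjusted p = 1.00 by edgeR, SE 0.41).

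Nr4a1, whose upstream window held 4 half-sites TGACG, lies on chromosome 15 from 101254269 to 101274795. It stood at 302, 227 and 373 CPM in knockout libraries, against 288, 192 and 369 CPM in control libraries, in the order of replicates 1, 2 and 3. Knockout was above control in all 3 pairs, by 5.17%, 18.3% and 1.02%. The fitted log2 change within pairs was 0.08 (adjusted p = 0.367 by edgeR, SE 0.04), and it was 0.026 without the pair numbered 2. Ier2, on the minus strand of chromosome 8 from 84661331 to 84662852, stood at 85.2, 46.3 and 67.8 CPM in knockout libraries, against 85.0, 45.3 and 62.5 CPM in control libraries in the same order. Same-numbered libraries differed by 0.259%, 2.15% and 8.50%, and the blocked log2 fold change was 0.02 (adjusted p = 0.877 by edgeR, SE 0.06). With GC correction the Ier2 estimate was 0.17 (adjusted p = 0.179 by edgeR, SE 0.06).

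The spread between replicates was wider than the difference between genotypes for each of the 9 genes. Group means differed between 1.03-fold for Egr3 and 1.44-fold for Arc, knockout over control, whereas the highest library exceeded the lowest of the same group by between 1.49-fold and 4.60-fold. The lowest library carried the same number in both groups for 9 of 9 genes and the highest for 8 of 9, the exception being Klf4. Neither count was made over all genes tested. Across those genes same-numbered libraries deviated together (correlations 0.712, 0.682 and 0.654), so such agreement is not a trait of the 9 alone. Replicate 2 was lowest in both groups for 7 genes, and replicate 3 for Egr1 and Egr2. For Egr2 in knockout libraries, replicates 2 and 3 were nearly level, at 16.7 and 16.5 CPM. Replicate 1 was highest in both groups for Egr1, Egr2, Egr3, Ier2 and Arc, and replicate 3 for Klf2, Klf6 and Nr4a1.

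**Figure D3:**
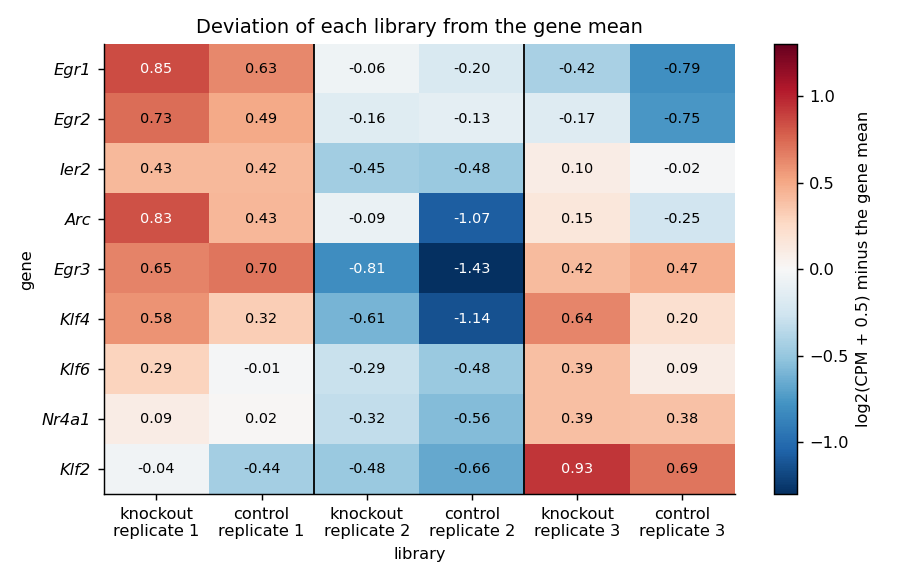
Deviation of each library (x axis) from the gene's mean over the 6 libraries, in log2(CPM + 0.5), for each of the 9 genes (y axis). Red is above and blue below the gene mean, and black lines separate the replicate numbers. Egr1 and Egr2 are lowest in the libraries numbered 3, in which Klf2 is highest.

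Patterns over the 6 libraries were compared as the root mean square difference of centred log2(CPM + 0.5). The closest members were Egr1 and Egr2, at 0.138, then Klf6 and Nr4a1, at 0.147. The farthest were Egr1 and Klf2, at 1.03. Other genes were considered if they averaged 5 CPM or more. The nearest to Egr1 were Ddr2 (0.0813), Slc7a3 and Pck2, and to Egr2 Slc7a11 (0.127), Lims2 and Ddr2. Nearest to Egr3 were Palld (0.128), Nfatc2 and Bmp2, to Klf2 Bmp6 (0.0913), Alpl and Hey2, and to Klf4 Wwtr1 (0.0449), Kank2 and Ppp1r3c. Nearest to Klf6 were Dgat2 (0.0347), Pla2g7 and Ifrd1, and to Nr4a1 Pde1b (0.0286), C77080 and Boc. Nearest to Ier2 were Nacc2 (0.0572), Tmem255a and Nr2e1, and to Arc Cav2 (0.0979), Dusp14 and Cfap44. A small difference between genes rests on 6 libraries that share their replicate numbers.

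No call among the 9 genes withstood the removal of every pair. Without the pair numbered 3, 0 of the 9 genes rose, against 0.388% of genes tested in those 4 libraries. The edgeR adjusted p was then 0.0849 for Klf6, 0.0873 for Klf4, 0.0616 for Arc and 0.181 for Egr1. Without the pair numbered 1, 2 of the 9 rose (1.72% of genes tested), as Klf6 (edgeR adjusted p = 0.0565) and Egr1 (0.0656) no longer passed. Without the pair numbered 2, 3 of the 9 rose (1.56% of genes tested), as Arc no longer passed (edgeR adjusted p = 0.0669). The direction of these 4 genes was kept in all 3 cases. Each was already higher in knockout in all 3 pairs, so this adds no support. Log2 fold changes lay between 0.22 and 0.28 for Klf6, 0.33 and 0.46 for Klf4, 0.38 and 0.67 for Arc, and 0.15 and 0.28 for Egr1.

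**Figure D4:**
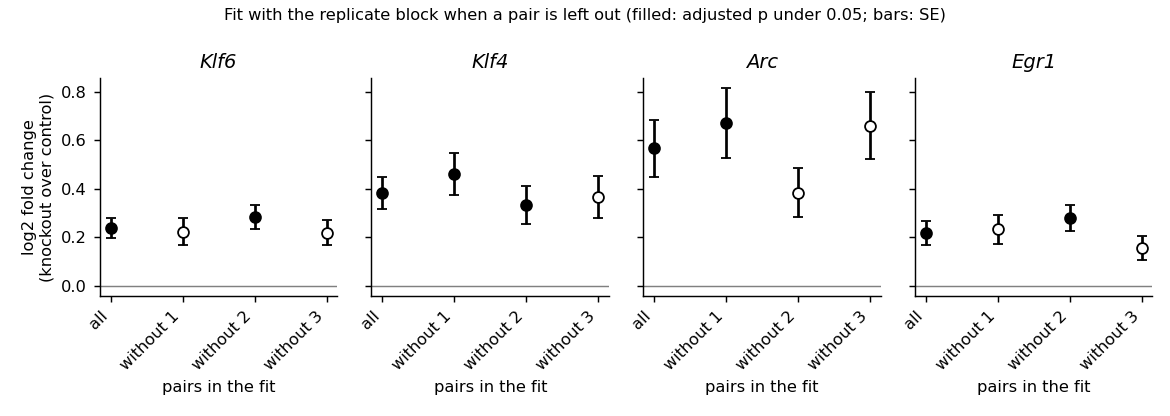
Blocked log2 fold change of knockout over control (y axis, bars SE) for Klf6, Klf4, Arc and Egr1, with all 3 pairs and with each pair left out (x axis). Filled points had an edgeR adjusted p under 0.05, and all points without the pair numbered 3 are open.

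The wider immediate early response was described by 48 other genes (of 50 listed), of which 5 rose with the block, 1 fell and 42 did not pass. Their median blocked log2 fold change was 0.14, against 0.00 over all genes tested, and 40 of 48 lay above 0, against 50.6% of all genes tested. Without the block 0 were called. Over all genes tested, 1.57% rose and 2.23% fell with the block. The 48 were also chosen with earlier results of these data known, so these comparisons are no test of the list. Fos, the AP-1 subunit, stood at 509, 381 and 539 CPM in knockout replicates 1, 2 and 3, against 399.9, 270.1 and 445 CPM in control replicates 1, 2 and 3. Its log2 fold change in the blocked fit was 0.35 ± 0.04 (SE), at an edgeR adjusted p of 0.00606. Bhlhe40, a transcriptional repressor of the circadian clock, rose by 0.52 on the log2 scale (SE 0.07), and Zfp36, which binds AU-rich messages and speeds their decay, by 0.46 (SE 0.09). Fosb rose by 0.28 (adjusted p = 0.0489 by edgeR, SE 0.06) and the pseudokinase gene Trib1 by 0.28 (adjusted p = 0.0493 by edgeR, SE 0.06). Jund, an AP-1 subunit, was the gene that fell, by 0.52 (adjusted p = 0.000574 by edgeR, SE 0.04). Of the 48, 5 rose without the pair numbered 1, 7 without pair 2 and 3 without pair 3, and 1 fell in each case. Of all genes tested, 1.72% rose without pair 1, 1.56% without pair 2 and 0.388% without pair 3. Fos, Bhlhe40 and Jund passed whichever pair was left out. Zfp36 did not pass without the pair numbered 3 (edgeR adjusted p = 0.0957), Fosb without pair 1 (0.107) or pair 2 (0.129), and Trib1 without pair 2 (0.0944) or pair 3 (0.167).

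**Figure D5:**
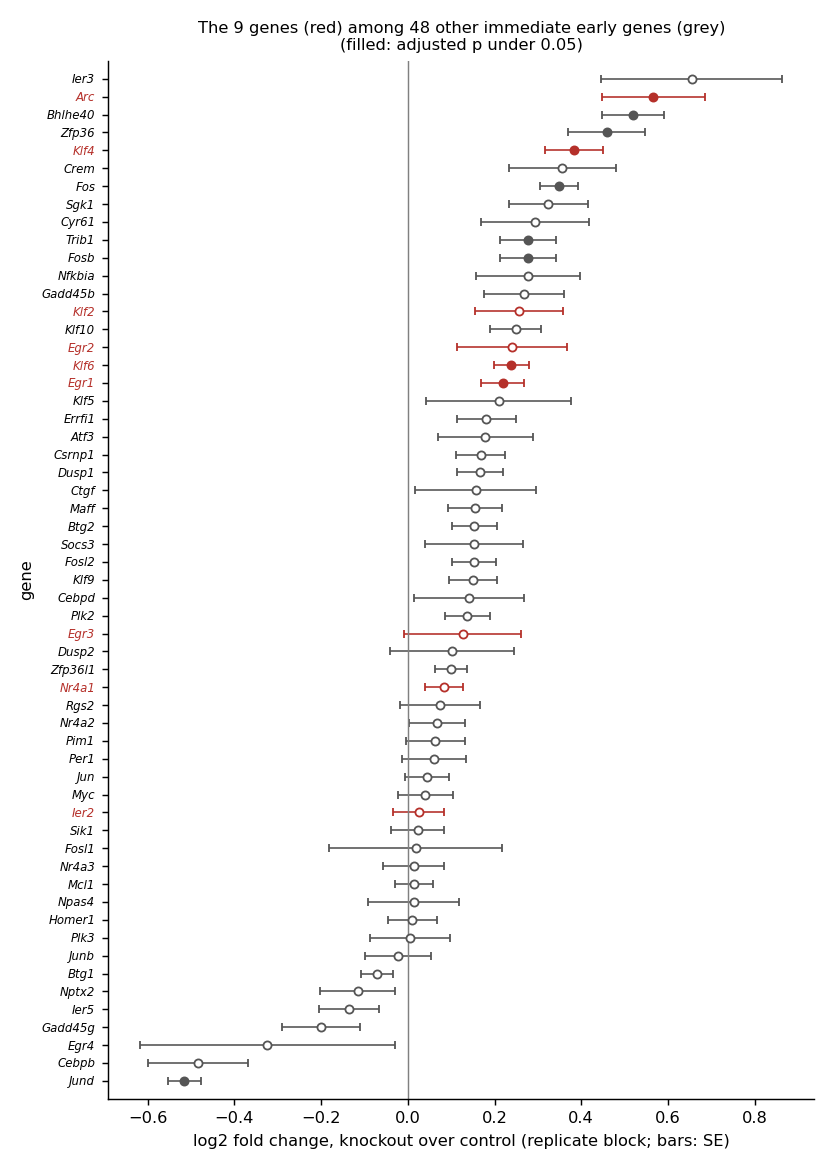
Blocked log2 fold change of knockout over control with its SE (x axis) for the 9 genes in red and 48 other immediate early genes in grey (y axis), ordered by size. Filled points had an edgeR adjusted p under 0.05. Most genes lie right of 0, and Jund lies at -0.52.

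A further list held other genes of the EGR, KLF and NR4A families, the EGR corepressors, further IER genes, Sp1, Sp3 and Wt1. Of its 25 genes, 22 were tested. With the block 0 rose and 1 fell (1.57% and 2.23% of all genes tested), and their median log2 fold change was -0.00. Ier5l was the gene that fell, at 28.7, 8.14 and 10.7 CPM in knockout replicates 1, 2 and 3, against 39.6, 10.8 and 15.2 CPM in control replicates 1, 2 and 3. Its log2 fold change in the blocked fit was -0.48 ± 0.10 (SE), at an edgeR adjusted p of 0.0279. Ier5l did not pass without the pair numbered 1 (edgeR adjusted p = 0.171) or 3 (0.125). Klf10, a gene induced by TGF-beta, was nearest to the threshold among the rest at 0.25 (adjusted p = 0.0526 by edgeR, SE 0.06). Ier3 was at 0.65 (SE 0.21), Klf9 at 0.15 (SE 0.06), Klf16 at -0.20 (SE 0.09) and Ier5 at -0.14 (SE 0.07), and none of these 4 passed. Ier3 was at 0.25 (SE 0.17) without the pair numbered 3. Without the pair numbered 2, 2 of the list rose (1.56% of genes tested), Ier3 (edgeR adjusted p = 0.0387) and Klf10 (0.0374). Klf10, Ier3, Klf9 and Ier5 also stand among the 48 genes above, as do Egr4, Klf5, Nr4a2 and Nr4a3 of these families.

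Of 24 genes for SRF, CREB and MEF2 factors and the kinases that act on them, 0 rose and 2 fell. Beside this and the next lists, 1.57% of all genes tested rose and 2.23% fell with the block. Srf stood at 173, 158 and 265 CPM in knockout replicates 1, 2 and 3, against 206, 171 and 307 CPM in control replicates 1, 2 and 3, lower in each pair. With the block it fell by 0.22 on the log2 scale (adjusted p = 0.0174 by edgeR, SE 0.04), and it did not pass without the pair numbered 3 (0.125). Mapk7, the kinase ERK5 that acts on MEF2, stood at 99.3, 107 and 101 CPM in knockout libraries, against 121, 131 and 116 CPM in control libraries, without overlap. With the block it fell by 0.28 on the log2 scale (adjusted p = 0.0174 by edgeR, SE 0.05), and it passed whichever pair was left out. Mkl2, Crebbp, Elk4 and Crem had estimates of 0.28, 0.11, 0.21 and 0.36 and did not pass. Of 12 cyclic AMP response genes 2 rose and 0 fell, with a median of 0.07. They were Fosb, above, and the phosphodiesterase gene Pde4b (0.30, SE 0.06, edgeR adjusted p = 0.0252), which did not pass without the pair numbered 1 (0.0820) or 3 (0.103). Of 13 genes that act with Arc or mark neuronal activity 0 rose and 0 fell, with a median of -0.09, Dlg4 being nearest to the threshold (-0.10, SE 0.04, edgeR adjusted p = 0.234).

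Markers of other cell types also moved with the block. Without it, edgeR called 0 genes of any list. Of all genes tested, 1.57% rose and 2.23% fell with the block. With a pair left out, 1.72% rose without pair 1, 1.56% without pair 2 and 0.388% without pair 3. Of 15 endothelial markers 11 rose with the block and 0 fell, and their sum was 167, 62.7 and 432 CPM in knockout replicates 1, 2 and 3, against 79.9, 27.1 and 137 CPM in control replicates 1, 2 and 3. Kdr, the receptor for vascular endothelial growth factor, rose by 1.37 (SE 0.11) and Flt1 by 1.56 (SE 0.16). With the third pair left out, 5 of the 15 rose, Kdr and Flt1 among them, against 12 without pair 1 and 14 without pair 2. Of 8 ependymal and choroid plexus markers 6 rose, led by Ttr and Aqp1, with sums of 835 to 2853 CPM in knockout and 348 to 1926 CPM in control libraries. With pair 3 left out, 3 of the 8 rose, Ttr, Aqp1 and Clic6. Of 8 astrocyte markers 4 rose, led by Gfap and Gja1, with sums of 1575 to 2879 CPM in knockout and 1306.5 to 2406 CPM in control libraries. Whichever pair was left out, 3 of the 8 rose, Aqp4, Gfap and Gja1. Of 10 pericyte and fibroblast markers 2 rose, Vtn and Rgs5, with sums of 131 to 897 CPM in knockout and 92.2 to 598 CPM in control libraries. Leaving out pair 3, 0 of the 10 rose (edgeR adjusted p 0.205 for Vtn and 0.172 for Rgs5), and without the pair numbered 1, 5 rose. Of 12 neuronal markers 4 fell, led by Dlx2 and Neurod2, with sums of 1906 to 3005 CPM in knockout and 2291 to 3271 CPM in control libraries, and 3 to 6 fell with a pair left out. Of 12 microglia and macrophage markers 0 were called, with sums of 15.1 to 285 CPM in knockout and 16.3 to 284 CPM in control libraries, and Cx3cr1 and Tmem119 were nearest to the threshold. Of 10 OPC markers 0 were called, Ptprz1 and Olig2 being nearest. Olig2, the gene that gives the Cre line its name, stood at 344, 94.7 and 117 CPM in knockout libraries, against 358, 175 and 166 CPM in control libraries (blocked log2 -0.50, adjusted p = 0.0533 by edgeR, SE 0.12). Without the pair numbered 1, 2 OPC markers fell, Olig2 (log2 fold change -0.72, SE 0.08) and Sox10. No marker in these lists was at 0 in any library. The part of these cell types in the values of the 9 genes was not tested, and in bulk RNA a change in the number of cells of a type cannot be told apart from a change in RNA per cell.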

How the data were processed

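RNA-seq counts of 6 libraries were used, 3 knockout and 3 control by the labels' genotypes. The authors deposited raw counts, as whole read pairs for each gene symbol. Libraries were poly(A)-selected, stranded and paired-end, per the labels' protocols. Named in the submitters' processing notes, without roles, are mm10, HTSeq 0.12.4, HISAT2 2.2.1 and DESeq2 1.26.0. The strand setting was not given in the sources used here. In GENCODE M21 no annotated gene overlapped any of the 9. The 5 summary entries were left out. Their largest share was pairs in no gene, 20.8% of pairs in knockout and 19.7% in control libraries.

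CPM values are over gene counts. Tests used edgeR 4.0.16 in R 4.3.3 (TMM, filterByExpr, quasi-likelihood, two-sided), adjusted by Benjamini-Hochberg over 15906 genes and called under 0.05. The main test had no block. Same-numbered libraries deviated together from their group means (correlations 0.712, 0.682 and 0.654). The numbers were therefore taken as pairs, from the data alone, as the labels do not say what a number marks. The fits were tested on simulated data in which same-numbered libraries shared effects, so that test cannot show whether the numbers mark pairs. Alternatives were other scalings, filters and tests (DESeq2 1.42.0, limma 3.58.1), a threshold of 0.1, GC correction in 20 bins, and libraries left out.

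The 9 genes and all lists were chosen with earlier results of these data known. Named genes were the 9, Prrc2b, up to 6 per list and 2 per cell type by blocked adjusted p, and 3 nearest patterns for each of the 9, passing over predicted models.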

Additional observations from a re-analysis of the deposited data

Results flagged for a closer look

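Read pairs outside the gene counts differed between the groups in 3 of 5 classes, with every knockout library above every control library. Pairs in no gene averaged 20.8% of all pairs in knockout libraries (20.4%, 21.3% and 20.5%) and 19.7% in control libraries (18.9%, 20.1% and 19.97%). Pairs of low alignment quality made up 3.83% ± 0.248 in knockout and 3.11% ± 0.193 in control libraries (SD, n = 3 each). Unaligned pairs made up 1.25% ± 0.122 in knockout and 1.03% ± 0.0964 in control libraries. The part of these shares in the values of the 9 genes was not tested.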

How the results depend on the processing

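The replicate block raised the count of genes called from all by edgeR to 604, that of the 9 genes to 4 and that of other immediate early genes to 6, all at 0 without it. DESeq2 without the block called 20 genes in all and 0 of the 9. Leaving out each of 6 libraries without the block gave 0 calls in all 3 counts. With the block, the count of all genes was 1034 with no filter on low counts, 1102 at an adjusted p under 0.1 and 387 after GC correction, and 174 to 521 with a pair left out. The 9 genes gave 0 to 3 calls with a pair left out (2 without the pair numbered 1). The other immediate early genes gave 10 calls with no filter and 4 to 8 with a pair left out. With all pairs and the block, the highest edgeR, DESeq2 or limma-voom adjusted p over the alternatives was 0.0470 for Egr1, 0.0254 for Klf4, 0.0360 for Klf6 and 0.0456 for Arc. Without the block, leaving out 1 library gave log2 fold changes of -0.26 to 0.67 for Egr1, -0.16 to 0.59 for Egr2, -0.40 to 0.39 for Egr3, -0.26 to 0.80 for Klf2, -0.14 to 0.29 for Nr4a1 and -0.20 to 0.28 for Ier2. It stayed above 0 for Klf4, Klf6 and Arc. With the block, leaving out a pair gave -0.069 to 0.24 for Egr3, -0.011 to 0.051 for Ier2, 0.085 to 0.40 for Egr2 and 0.026 to 0.13 for Nr4a1. GC correction with the block gave 0.17 for Ier2 and 0.40 for Klf2, neither past the threshold, and limma-voom gave 0.027 for Egr3. Scalings moved the median of all genes by at most 0.03. The cause of these changes was not tested. Each fit without a pair rests on 4 libraries. SEs of the 9 genes without the block lay between 0.21 and 0.60.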
